A study of Mus musculus with 12 samples.

Results

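Acetylation of histone H3 at lysine K27 (H3K27ac) was compared between myotubes and myoblasts of C2C12, a mouse cell line that divides as single myoblasts and fuses into multinucleate myotubes when serum is withdrawn. The comparison takes the samples whose antibody label is H3K27ac, 2 of the 12 ChIP-seq libraries of the series, 1 from each cell state. The myoblasts were kept near confluence in medium with 10% serum. The myotubes were collected about 5 days after serum withdrawal and were freed of unfused cells by a light treatment with trypsin. Both come from the same line, given by the labels as strain C3H at passages 15 to 18, with no genetic change or drug named for either. The other 10 libraries hold H3K4me1, H3K4me2, H3K4me3, H3K27me3 and H3K36me3 in both cell states. With 1 library per state there is no replicate, no test was run, and every difference is one between these 2 libraries.

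H3K27ac is placed on nucleosomes by the acetyltransferases p300 and CBP and removed by histone deacetylases. It is found at the promoters of transcribed genes and at active enhancers, where it separates enhancers in use from those that carry H3K4me1 alone. In muscle cells the bHLH factors of the MyoD family and the MEF2 factors bind such elements together, and the contractile genes they act on are silent in dividing myoblasts. A bulk library averages over nuclei, so fewer nuclei with the mark and less mark per nucleus cannot be told apart.

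The promoters on which the comparison turns are shown first, as the 250 bases before the transcription start site (TSS), read from mm9 and printed 5′ to 3′ on the strand of the gene. Capitals mark matches to 7 motifs searched on both strands, which are the E-box CAGCTG, the MEF2 consensus, the CArG box of serum response factor, the MCAT element CATTCC, the AP-1 site TGANTCA, the E2F-like site TTTNGCGC and the CCAAT box. Acta1 (skeletal actin, chr8:126418652-126418901, minus strand), Ckm (muscle creatine kinase, chr7:19996193-19996442, plus strand), Myog (myogenin, chr1:136186331-136186580, plus strand) and Myl1 (a myosin light chain, chr1:66981929-66982178, minus strand) had more H3K27ac in myotubes. Mki67 (the proliferation marker Ki-67, chr7:142908063-142908312, minus strand) and Fosl1 (the AP-1 subunit Fra-1, chr19:5447453-5447702, plus strand) had less. No annotated exon lies in these 6 windows.
Acta1: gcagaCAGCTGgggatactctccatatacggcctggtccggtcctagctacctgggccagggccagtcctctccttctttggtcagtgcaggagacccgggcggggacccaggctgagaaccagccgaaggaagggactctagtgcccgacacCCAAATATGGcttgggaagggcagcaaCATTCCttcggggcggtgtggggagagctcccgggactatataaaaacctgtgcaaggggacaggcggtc
Ckm: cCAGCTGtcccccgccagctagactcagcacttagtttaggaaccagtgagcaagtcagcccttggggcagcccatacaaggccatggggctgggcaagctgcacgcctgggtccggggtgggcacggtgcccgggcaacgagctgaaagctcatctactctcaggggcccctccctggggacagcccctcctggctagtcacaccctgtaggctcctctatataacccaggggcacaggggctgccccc
Myog: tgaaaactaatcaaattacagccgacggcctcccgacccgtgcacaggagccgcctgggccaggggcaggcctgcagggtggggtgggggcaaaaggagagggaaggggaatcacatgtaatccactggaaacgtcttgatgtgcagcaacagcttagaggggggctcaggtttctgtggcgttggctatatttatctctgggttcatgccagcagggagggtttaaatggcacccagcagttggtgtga
Myl1: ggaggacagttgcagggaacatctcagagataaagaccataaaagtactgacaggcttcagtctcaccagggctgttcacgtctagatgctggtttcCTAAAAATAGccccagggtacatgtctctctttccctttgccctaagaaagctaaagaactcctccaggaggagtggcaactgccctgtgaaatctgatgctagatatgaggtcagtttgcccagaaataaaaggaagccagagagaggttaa
Mki67: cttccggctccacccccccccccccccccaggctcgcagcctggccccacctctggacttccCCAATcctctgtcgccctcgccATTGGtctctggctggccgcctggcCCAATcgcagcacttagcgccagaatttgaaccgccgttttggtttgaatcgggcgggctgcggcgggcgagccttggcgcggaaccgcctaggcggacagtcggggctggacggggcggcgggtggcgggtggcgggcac
Fosl1: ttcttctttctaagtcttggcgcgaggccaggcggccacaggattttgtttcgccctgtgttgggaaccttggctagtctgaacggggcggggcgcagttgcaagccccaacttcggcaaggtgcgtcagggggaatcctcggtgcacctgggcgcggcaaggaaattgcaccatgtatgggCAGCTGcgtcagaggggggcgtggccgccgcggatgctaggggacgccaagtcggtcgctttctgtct
The Acta1 window holds an E-box at -245 to -240, a CArG box at -97 to -88 and an MCAT element at -70 to -65, counted from the base before the TSS as -1. The Myl1 window holds a MEF2 match at -153 to -144, and the Mki67 window holds 3 CCAAT boxes. A match is a description of the letters and not evidence of binding.

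The myoblast library held 1858771 uniquely aligned reads and the myotube library 4725910, 2.54 times as many, within a range of 1858771 to 7033100 over the 12 libraries. Reads that shared position and strand made up 2.23% of the myoblast and 0.806% of the myotube library. The peaks deposited for each library covered 35.96 Mb in 34662 myoblast peaks and 47.6 Mb in 47019 myotube peaks. Each library had about the same share of its reads in its own peaks, 51.2% in myoblasts and 51.3% in myotubes. The myoblast list used here is the one whose name says H3K27ac, although it was deposited with the H3K27me3 sample. H3K27ac myoblast reads lay in it at 36.4 times the genome mean and H3K27me3 myoblast reads at 0.804 times. In the other list, deposited under the H3K27ac label, they lay at 0.588 and 6.76 times.

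Promoters as a whole held a smaller share of the H3K27ac reads in myotubes, and around this shift some promoters moved far in each direction. Promoter H3K27ac is the number of fragment midpoints within 1 kb of 1 TSS for each of 22208 protein-coding genes. At the 10445 promoters that overlapped H3K4me3 peaks of both states, called shared promoters here, the median count was 37 reads in myoblasts and 51 in myotubes. Scaled by total reads, the median ratio of myotubes to myoblasts there was 0.556 (95% order-statistic interval 0.551 to 0.566), with 5% of these promoters under 0.202 and 5% above 1.57. In terms of enrichment over the genome mean the medians were 25.5-fold in myoblasts and 13.8-fold in myotubes. Shared promoter windows took up 26.2% of all myoblast reads and 16.2% of all myotube reads, while 10 kb windows without a peak of either list took up 28.9% and 29.2%. The libraries do not tell whether promoters lost the mark or the rest of the genome gained it, since reads give shares only.

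A pair of scales is therefore used. In what follows, folds and list counts are on the shared-promoter scale unless total reads are named. On the shared-promoter scale a value of 1 is the median ratio of the shared promoters. On the total-read scale it is an equal share of all reads. A promoter was called higher or lower when its ratio, with 1 read added to each count, passed 2-fold, and the 10836 promoters with a summed count of at least 20 reads were examined. On the shared-promoter scale 1656 were higher in myotubes (15.3% of those examined) and 1320 were lower (12.2%). On the total-read scale 580 were higher (5.35%) and 4483 lower (41.4%). The 580 promoters were all among the 1656, and the 1320 among the 4483. The exact 95% interval of the ratio, which covers counting error only, also excluded 1 at 1617 of the 1656 and at 1272 of the 1320. Past 8-fold, 212 promoters were higher and 30 lower on the shared-promoter scale. Past 3-fold 756 were higher and 445 lower on that scale, and 343 higher and 2039 lower by total reads, so which direction holds more large differences depends on the scale. The calls were not spread evenly over read levels. Of the 2554 promoters with 20 to 49 reads, 16.1% were higher and 19.6% lower, and of the 266 with at least 400 reads, 31.6% were higher and 0% lower. The summed count is weighted toward the deeper myotube library, and a lower promoter reaches 400 reads only with very many myoblast reads. These shares were therefore in part set by how the level was defined. GC content moved with the ratio too, and its part in the result was not tested. Among promoters of 40 to 45% GC, 65.4% of 127 were higher and 4.72% lower, and above 65% GC 12.2% of 2738 were higher and 11.7% lower.

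**Figure D1:**
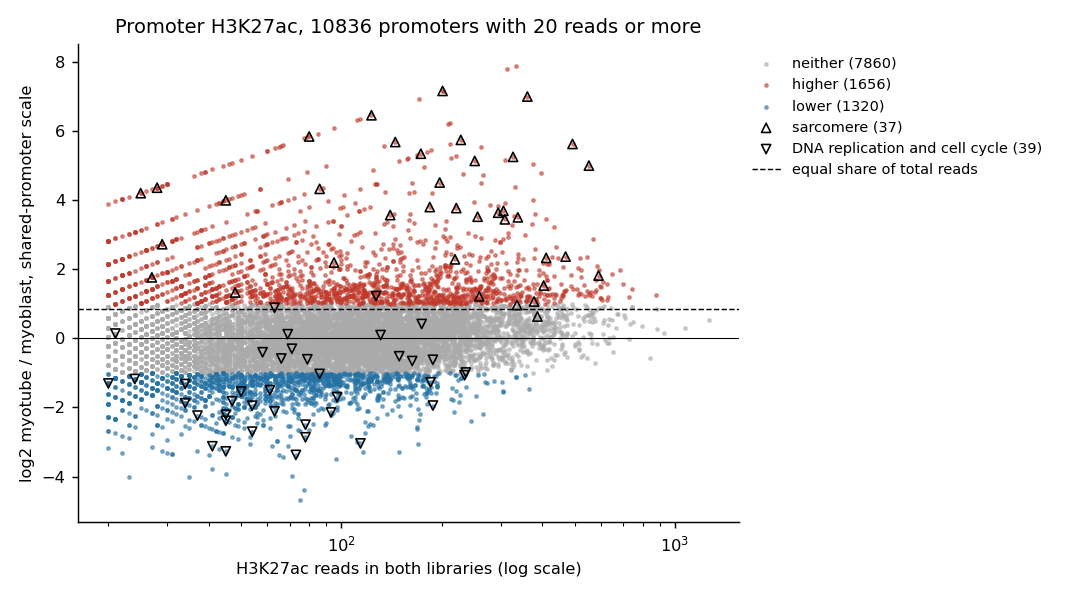
Each point is 1 of the 10836 promoters with at least 20 H3K27ac reads, by its reads in both libraries (x, log scale) and its log2 ratio of myotubes to myoblasts on the shared-promoter scale (y). Red and blue points are past 2-fold, the dashed line marks an equal share of total reads, and triangles mark 37 sarcomere and 39 cell cycle promoters, which lie mostly above and mostly below 0.

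The promoters with the highest lower bounds were mostly those of muscle genes, a reading made after they were seen. The share of such genes over all promoters was not counted. Folds below are on the shared-promoter scale without added reads, with their exact 95% interval. Where myoblasts had no read the fold is given against the limit of 3 reads that a count of 0 allows, which leaves out the counting error of the myotube reads. The lower end of the exact 95% interval, which is smaller and by which promoters were ranked, stands beside it. Art1, a surface ADP-ribosyltransferase of skeletal muscle (chromosome 7, TSS 109250257), had 0 reads in myoblasts and 334 in myotubes, at least 78.8-fold higher against that limit (interval from 63.7). Cacna1s, the voltage sensor that couples excitation to contraction, had 0 and 313 reads (at least 73.8-fold, interval from 59.7). Myh3, the embryonic myosin heavy chain, had 0 and 201 reads (at least 47.4-fold, interval from 38.2). Each of these 3 promoters was at 0 in the myoblast library and above 50 times the genome mean in the myotube library. Lmod2, an actin filament nucleator of the sarcomere, had 1 read in myoblasts and 360 in myotubes, 255-fold with a wide interval (45.4 to 10088). Acta1, skeletal muscle actin, had 6 and 487 reads, the most in myotubes of the 12 leading promoters, and was 57.4-fold higher (26.2 to 157). Csrp3, the muscle LIM protein, had 0 and 202 reads, and Trim63, the muscle ubiquitin ligase MuRF1, had 0 and 171. The rest of the 12 promoters with the highest lower bound were Asb16, Filip1, Myl1, Myoz2 and Trp63. Of these, Trp63, a p53-family factor better known from epithelia, had 0 and 114 reads (at least 26.9-fold, interval from 21.5). In all, 48 of the 1656 higher promoters had no read in myoblasts, and none of the 1320 lower ones was at 0 in myotubes. Since the myotube library was 2.54 times as large, a count of 0 is likelier in myoblasts, so these numbers do not compare loss with gain.

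**Figure D2:**
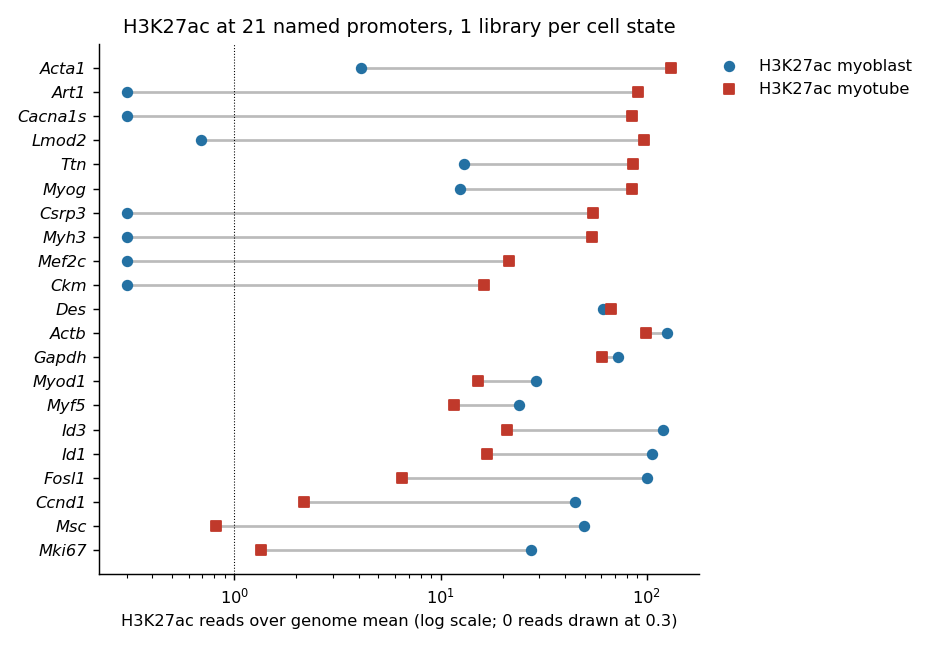
H3K27ac within 1 kb of the TSS of 21 named genes, as reads over the genome mean of the library (x, log scale, total-read scale), for the myoblast (circles) and the myotube library (squares). Promoters without a read are drawn at 0.3. From Acta1 to Ckm the squares lie far to the right, and at Des, Actb and Gapdh the symbols nearly coincide. At Myod1 and Myf5 the circles lie somewhat to the right, and from Id3 to Mki67 they lie farther to the right.

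Genes of the contractile apparatus had more H3K27ac in myotubes at nearly every promoter that could be examined. Of 42 sarcomere genes listed, 37 had at least 20 reads, and 35 of these were higher, against 15.3% of all promoters, with none lower. Their median log2 ratio was 3.69, beside 0.04 for all promoters examined. In myoblasts 16 of the 42 promoters had 3 reads or fewer and the median was 5.5 reads, while in myotubes none did and the median was 195.5. Promoters this low in myoblasts were examined only through their myotube reads, so the count describes them and supports nothing further. The same holds for members of the next lists with 3 myoblast reads or fewer, which were 7 of 21 for calcium release and the acetylcholine receptor, 3 of 17 for fusion and membrane, 3 of 15 for myogenic factors and 4 of 19 for energy metabolism. Ttn, the giant spring of the sarcomere, had 19 and 319 reads (11.9-fold, 7.48 to 19.99). Tpm2, beta-tropomyosin, had the most reads of the list, 98 and 492, and was 3.55-fold higher (2.86 to 4.46). The examined promoters that stayed under 2-fold were Myl4, an atrial and embryonic light chain with 121 and 266 reads (1.56-fold, 1.25 to 1.95), and Des, the muscle intermediate filament protein desmin with 89 and 247 reads (1.96-fold, 1.54 to 2.53). The 5 with fewer than 20 reads were Myl3, Myoz1, Myh2, Mybpc1 and Myh4, each with 4 reads or fewer in myoblasts and 4 to 15 in myotubes. Scaled by total reads, 29 of the 37 were higher and the median was 2.84.

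Proteins of calcium release and of the neuromuscular junction followed with smaller differences. Of 21 listed genes 18 were examined, 13 were higher and none lower, against 15.3% and 12.2% of all promoters, and the median log2 ratio was 1.93. The highest was Cacna1s. Cacng1, another calcium channel subunit, had the most reads, 106 and 404 (2.70-fold, 2.17 to 3.37). Rapsn, which clusters acetylcholine receptors under the nerve ending, had 123 reads in myoblasts and 127 in myotubes and was 0.731-fold (0.566 to 0.944). The Rapsn promoter stood at 84.6 times the genome mean in dividing myoblasts. Among 17 genes of fusion, adhesion and the muscle membrane 14 were examined, 9 were higher (15.3% of all promoters) and none lower (12.2%), with a median of 1.17. Cav3, caveolin of the muscle membrane, led them with 3 and 210 reads (49.5-fold, 16.7 to 242). Itgb1, the beta-1 integrin, had the most reads, 127 and 336 (1.87-fold, 1.52 to 2.31), and Jam2, an adhesion molecule of tight junctions, had 80 and 67 (0.593-fold, 0.422 to 0.830). By total reads 10 of the 18 and 6 of the 14 were higher.

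Regulators of myogenesis differed in whether their promoters were marked in myoblasts already. Myod1 and Myf5, which commit cells to the muscle lineage, had similar raw promoter counts in both libraries, although the myotube library was 2.54 times as large. Myod1 had 42 and 56 reads (0.943-fold, 0.621 to 1.44), and Myf5 had 35 and 43 (0.869-fold, 0.543 to 1.40). The intervals of both hold 1 on this scale. By total reads, with 1 read added to each count, Myod1 was 0.521-fold and Myf5 0.481-fold. Myog, which drives terminal differentiation, had 18 and 312 reads (12.3-fold, 7.63 to 20.97). Mef2c, which acts with it, had 0 and 79 (at least 18.6-fold, interval from 14.8), and Myf6, the family member of mature muscle, had 5 and 26 (3.68-fold, 1.39 to 12.3). Mef2d had the most reads of the list, 108 and 348 (2.28-fold, 1.83 to 2.86). Six4, a homeobox factor of muscle precursors, had 73 and 59 (0.572-fold, 0.399 to 0.817). Of 15 listed factors 12 were examined, 5 were higher and none was lower, beside 15.3% and 12.2% over all promoters, with a median log2 ratio of 0.72. The 3 with fewer than 20 reads, Pax3, Pax7 and Eya2, had at most 7 reads in either library. By total reads 3 were higher and 3 lower.

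Of 19 listed genes of muscle energy metabolism 18 were examined, 11 were higher and 1 was lower, where 15.3% and 12.2% of all promoters were, and the median log2 ratio was 1.75. Ckm, the muscle creatine kinase, had 0 and 60 reads (at least 14.15-fold higher, interval from 11.2). Ckb, the isoform of brain and of undifferentiated cells, had 20 and 11 reads (0.389-fold, 0.168 to 0.852) and was the member that was lower. Pfkm, the muscle phosphofructokinase, had 45 and 72 (1.13-fold, 0.769 to 1.68). Aldoa, a glycolytic aldolase, had the most reads, 104 and 272 (1.85-fold, 1.47 to 2.34), and Gapdh had 106 and 225 (1.502-fold, 1.19 to 1.91). Among 80 examined genes of oxidative phosphorylation 7 were higher and 8 lower on the shared-promoter scale, smaller shares than over all promoters, and the median was -0.29. Its extreme members were Cox6a2, the muscle form of a cytochrome oxidase subunit, with 1 and 46 reads (32.6-fold, 5.56 to 1313), and Ndufa5, of complex I, with 36 and 15 (0.295-fold, 0.150 to 0.552). By total reads 2 of the 80 were higher and 46 lower, the latter a larger share than the 41.4% of all promoters. Of the 18 energy metabolism genes 9 were higher and 2 lower by total reads.

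**Figure D3:**
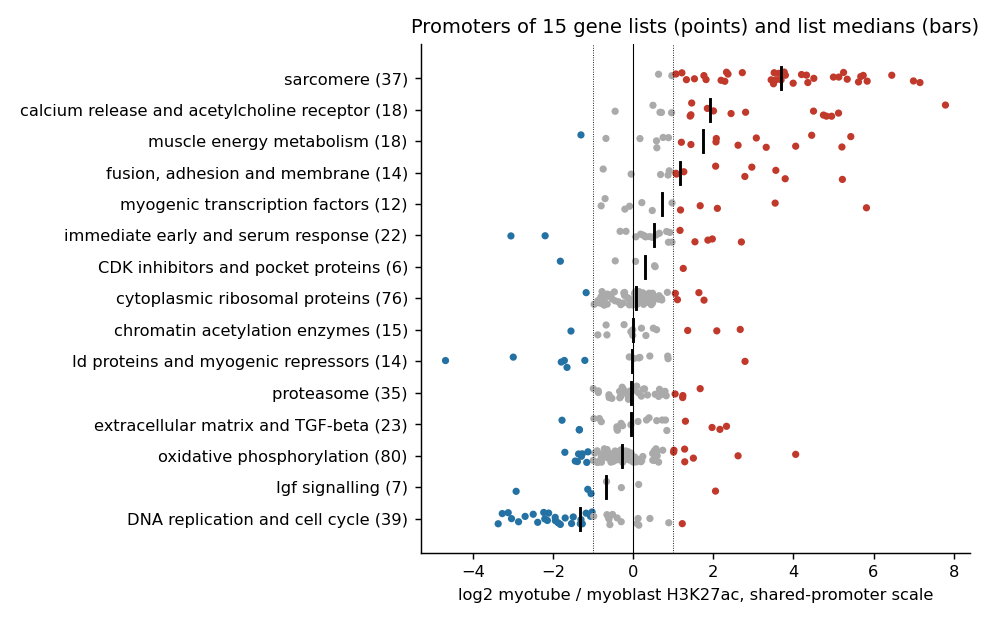
Log2 ratio of promoter H3K27ac (x, shared-promoter scale) for the members with at least 20 reads of the 15 lists with at least 6 such members, with their number after the name. Points are genes, coloured past 2-fold (dotted lines), and bars are list medians, from 3.69 for the sarcomere to -1.32 for DNA replication and the cell cycle.

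Among the gene lists, promoters of the cell cycle had the lowest median ratio of H3K27ac in myotubes to myoblasts. Of 41 genes of DNA replication and division 39 were examined, 25 were lower, against 12.2% of all promoters, and 1 was higher, and the median log2 ratio was -1.32. Ccnd1, cyclin D1 of the G1 phase, had 65 reads in myoblasts and 8 in myotubes (0.0871-fold, 0.0361 to 0.182). Mki67 had 40 and 5 reads (0.0884-fold, 0.0272 to 0.224). Rrm2, a ribonucleotide reductase subunit with the most reads of the list, had 138 and 98 (0.503-fold, 0.384 to 0.656). Although the myotube library was 2.54 times as large, its raw counts were the smaller ones at all 3. Cdk2 was the member that was higher, with 29 and 98 reads (2.39-fold, 1.57 to 3.75). By total reads 33 of the 39 were lower and none was higher. Another list holds 11 genes, which are CDK inhibitors and pocket proteins, brakes on the cycle, and the cyclin Ccnd3. Of these 6 were examined, Ccnd3 was higher, the pocket protein Rbl1 was lower and no inhibitor was past 2-fold. Cdkn1a, the inhibitor p21 that rises when myoblasts leave the cycle, had the most reads, 212 and 434 (1.45-fold, 1.23 to 1.72). Ccnd3 had 27 and 93 (2.44-fold, 1.57 to 3.89), and Rbl1, which encodes p107, had 69 and 27 (0.277-fold, 0.171 to 0.438). By total reads 2 of these 6 were lower and none was higher.

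Among inhibitors of myogenesis some promoters had less H3K27ac in myotubes and others more. Msc, the bHLH repressor musculin, stood lowest of all promoters examined, with 72 reads in myoblasts and 3 in myotubes (0.0295-fold, 0.00594 to 0.0897). The neighbouring start site of Gm9947 shares reads with it, with 73 and 4. Id1 and Id3, which keep MyoD from its partners, had 154 and 62 reads (0.285-fold, 0.209 to 0.385) and 175 and 78 reads (0.315-fold, 0.238 to 0.414). Zeb1, an E-box repressor on chromosome 18, had 17 and 175 reads (7.28-fold, 4.42 to 12.8), and Bhlhe40, a bHLH repressor of the clock, had 248 and 638 (1.82-fold, 1.57 to 2.12). Of 17 listed genes 14 were examined, 6 were lower and 1 was higher, beside 12.2% and 15.3% of all promoters, and the list median of -0.04 lay near the 0.04 of all promoters. Several others of the 12 promoters with the lowest upper bound belong to genes of dividing cells, a reading made after they were seen. They include Pbk, a mitotic kinase with 42 and 3 reads, Uhrf1, needed to copy DNA methylation, with 102 and 14, E2f7, a repressor of cell cycle genes, with 60 and 7, and Hist1h2bm, a replication histone, with 33 and 2. Hist1h2bm belongs to a family of near-identical genes, and how unique alignment divided its reads is uncertain. Cadm4, a cell adhesion molecule, had 131 and 18 reads (0.0972-fold, 0.0559 to 0.160), and over the 2 kb downstream of its TSS the log2 ratio was 0.11, so its difference was not seen there. Fosl1 had 146 and 24 reads (0.116-fold, 0.0722 to 0.180). The others were Syt13, Uggt2, D2Ertd750e and Ccnd1.

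Immediate early genes, which respond to serum, were called in shares near those of all promoters, 15.3% higher and 12.2% lower, but their members differed widely. All 22 were examined, 5 were higher and 2 lower, and the median log2 ratio was 0.52 on the shared-promoter scale and -0.32 by total reads. Fosl1 was the lowest. Fos had 104 and 582 reads (3.96-fold, 3.21 to 4.93), Fosb had 21 and 201 (6.77-fold, 4.31 to 11.2), and Fosl2, with the most reads, had 203 and 542 (1.89-fold, 1.61 to 2.23). The 4 genes of the FOS family of AP-1 subunits thus ranged from 0.116-fold to 6.77-fold. Relative to total reads 3 of the 22 were higher and 4 lower.

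Of 12 genes of Igf signalling 7 were examined, 1 was higher and 3 were lower, beside 15.3% and 12.2% of all promoters, and the median log2 ratio was -0.67. Igf1r, the receptor, had 29 and 175 reads (4.27-fold, 2.87 to 6.56), and Igfbp2, a binding protein, had 42 and 7 (0.118-fold, 0.0447 to 0.265). Igf2, the growth factor, had 0 and 4 reads at the start site chosen, too few for a fold. The next groups had medians closer to that of all promoters. Among 27 genes of the extracellular matrix and TGF-beta 23 were examined, 4 were higher and 3 lower, with a median of -0.06. They ran from Thbs2, a matrix thrombospondin with 16 and 6 reads (0.265-fold, 0.0850 to 0.714), to Acta2, smooth muscle actin with 41 and 297 (5.13-fold, 3.69 to 7.29). Lox, which crosslinks collagen, had 173 and 186 (0.761-fold, 0.615 to 0.941). Of the enzymes and readers of acetylation themselves 15 were examined, 3 were higher and 1 was lower, with a median of -0.01. Hdac9, a deacetylase that binds MEF2, had 3 and 35 reads (8.26-fold, 2.60 to 42.0), Hdac7, of the same class, had 51 and 24 (0.333-fold, 0.196 to 0.551), and Hdac2 had 144 and 127 (0.624-fold, 0.488 to 0.798). Cytoplasmic ribosomal proteins, with 76 examined, had 4 higher, 1 lower and a median of 0.07. Rps2 was the highest of them with 20 and 100 reads (3.54-fold, 2.17 to 6.04), Rps13 the lowest with 47 and 29 (0.437-fold, 0.265 to 0.708), and Rpl19, with the most reads, had 141 and 216 (1.08-fold, 0.873 to 1.35). The proteasome, with 35 examined, had 4 higher, none lower and a median of -0.05, and ran from Psmd12 with 115 and 81 reads (0.498-fold, 0.370 to 0.668) to Psmb5 with 11 and 53 (3.41-fold, 1.76 to 7.24). Actb, which encodes the cytoplasmic actin, had 183 and 368 reads (1.42-fold, 1.19 to 1.71). Relative to total reads the medians were -0.78 for ribosomal proteins, -0.89 for the proteasome and -1.13 for oxidative phosphorylation, beside -0.81 for all promoters examined. On that scale 3 matrix and TGF-beta genes were higher and 11 lower. For Igf signalling these counts were 1 and 5, and for the acetylation list 2 and 5, beside 5.35% and 41.4% of all promoters.

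Markers of other cell types were mostly at background. Of the 62 marker genes of 8 other tissues that have a promoter in the annotation, 12 had at least 20 reads. Liver and endothelial lists had no such member. Their 7 liver promoters held 9 reads in all in myoblasts and 23 in myotubes, and the 6 endothelial promoters 14 and 13. Summed over a list, the other 6 lists ranged from 24 to 228 reads in myoblasts and from 20 to 336 in myotubes. Blood and immune markers had the fewest of these 6 lists, 24 and 20 reads, of which Cd14 held 20 and 18, while Ptprc, Gata1, Cd3e and Csf1r had 0 or 1 read in each library. Sox9 and Runx2, regulators of cartilage and bone, were marked in both, Sox9 with 137 and 208 reads (1.07-fold, 0.862 to 1.34) and Runx2 with 80 and 96 (0.849-fold, 0.625 to 1.16). Pparg, the adipocyte receptor, had 59 and 96 (1.15-fold, 0.824 to 1.62). Past 2-fold were Smtn and Gfap, which were higher, and Krt14, which was lower with 15 and 6 reads. Muscle markers went with the label of each state, since Myod1 and Myf5 were marked in both, and Ckm, Acta1, Myh3 and Myog mainly in myotubes.

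The other marks moved with H3K27ac to different degrees. H3K4me3 is not independent of the classes, since it chose the start site of each gene and the shared promoters that set the scale. For each mark the ratio was scaled to its own median at shared promoters. H3K4me3 had a median log2 ratio of 0.52 at the 1656 higher promoters, -0.45 at the 1320 lower ones and 0.00 at the 7860 others, and 83.6% of the higher and 17.0% of the lower promoters lay above 0. H3K4me2 gave 0.53, -0.49 and 0.01. H3K4me1 gave 0.12, -0.39 and 0, so that higher and lower promoters differed less in it. H3K36me3, at 4 to 8 reads per promoter, and H3K27me3, at 2 to 4, gave medians from -0.01 to 0.22. Across promoters with at least 20 reads of the mark compared, Pearson's r with the H3K27ac log2 ratio was 0.66 for H3K4me3 (Spearman's rho 0.51, 10480 promoters), 0.56 for H3K4me2 (0.43, 10790), 0.22 for H3K4me1 (0.18, 9034) and -0.39 for H3K27me3 (-0.36, 213). Promoters are not independent, and all libraries of a state share its cells, so these values are descriptions. Promoters with an H3K4me3 peak in myotubes only numbered 480, of which 320 were examined and 81.9% were higher. Of the 435 with a peak in myoblasts only, 214 were examined and 45.3% were lower. Over all 480 the medians were 4 H3K27ac reads in myoblasts and 27 in myotubes, and over all 435 they were 9 and 8. Many of the 480 thus passed the filter on reads mainly through their myotube reads. Both shares describe the examined promoters and support nothing further.

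Some promoters were higher in H3K27ac without a peak of H3K4me3. Of the higher promoters 172, or 10.4%, overlapped no H3K4me3 peak in myotubes. Their medians in myotubes were 31 H3K27ac reads and 8 H3K4me3 reads, against 92 and 75 at the other 1484. Their H3K4me1 was 6.73 times the genome mean, against 4.28 times at the others, and their median ratio of observed to expected CpG was 0.245, against 0.685. Base composition separated the classes in general. Of the 612 examined promoters with a CpG ratio under 0.3, 51.5% were higher and 9.48% lower, and of the 8549 with a ratio of at least 0.6, 10.9% were higher and 12.3% lower. Only 8.75% of the CpG-poor promoters reached 20 reads, against 81.5% of the CpG-rich ones.

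Around the TSS the place of the highest signal was the same in both states. In both libraries and all 3 classes the highest 100 bp bin lay 250 bp downstream of the TSS. There the higher promoters reached 34.1 times the genome mean in myoblasts and 51.3 times in myotubes, the lower ones 79.6 and 13.5 times, and the rest 72.8 and 34.99 times. The higher promoters differed also far from the TSS, with 2.87 and 5.07 times the genome mean 4 to 5 kb away, where the rest had 2.51 and 2.31 times. Counted over 2 kb on each side, the share of reads downstream was 55.8% in myoblasts and 55.7% in myotubes at the higher promoters, and 60.7% and 55.7% at the lower ones.

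**Figure D4:**
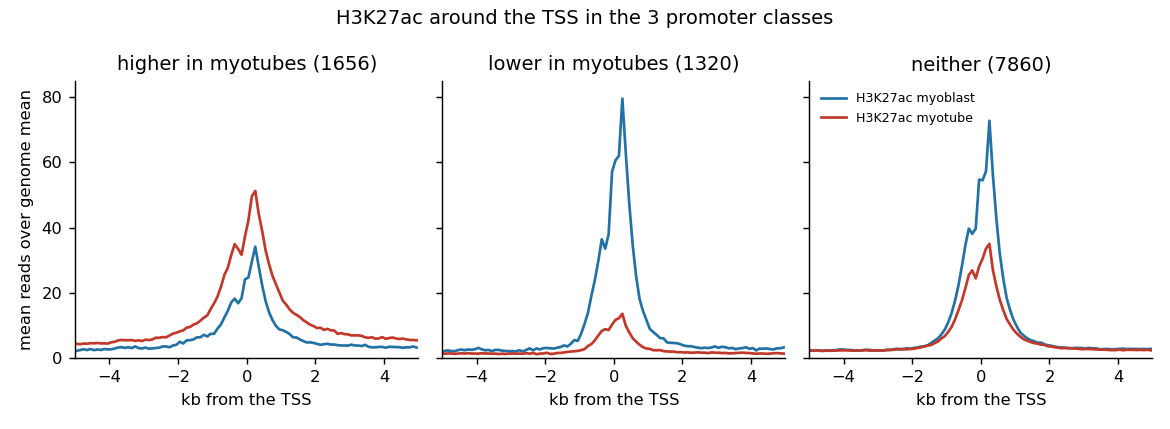
Mean H3K27ac in 100 bp bins from 5 kb before to 5 kb after the TSS (x, in kb), as reads over the genome mean of each library (y), for promoters higher, lower or neither on the shared-promoter scale. All curves peak 250 bp downstream. The myotube curve is above the myoblast curve out to 5 kb in the first panel and below it in the second. In the third panel the myotube curve is below near the TSS, and farther out the curves nearly meet.

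The 250 bases before the TSS held muscle motifs somewhat more often at the higher promoters. The MEF2 consensus was found at 3.38% of the higher, 0.909% of the lower and 1.39% of all examined promoters, and the E-box CAGCTG at 16.4%, 12.1% and 12.2%. The E2F-like site TTTNGCGC was found at 1.39%, 3.86% and 2.13%. Over all 22208 promoters the shares were 2.67%, 12.1% and 1.36%. Since CpG-poor promoters hold more A and T, the shares were also taken within a CpG class. Under a CpG ratio of 0.3 the MEF2 consensus was at 9.52% of 315 higher promoters, 3.45% of 58 lower and 1.67% of 239 others. At a ratio of at least 0.6 the E2F-like site was at 1.82% of the higher, 4.19% of the lower and 2.27% of the others, and the MEF2 consensus at 1.07%, 0.572% and 0.929%.

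Away from promoters, over the peaks of both lists together, the balance tipped toward myotubes. Of the myoblast peaks 68.0% overlapped a myotube peak by at least 1 base, and of the myotube peaks 49.1% overlapped a myoblast peak. Within 2 kb of a TSS these shares were 78.2% and 75.7%, and beyond it 60.7% and 36.4%. Merging both lists gave 37819 distal regions, over 2 kb from every annotated TSS, of which 17322 had at least 20 reads. On the shared-promoter scale 10363 of these were higher in myotubes (59.8%) and 1577 lower (9.1%), with a median log2 ratio of 1.501. On the total-read scale 43.3% were higher and 19.3% lower, with a median of 0.65. The regions were defined by the same reads, and the deeper myotube library yields more of them. With the myotube library thinned to the size of the myoblast one 52.2% of 11043 regions were higher and 11.2% lower, and among 11672 distal peaks of the myoblast list alone 33.8% were higher and 14.5% lower. The thinned library and the myoblast list were counted on the shared-promoter scale only. There the myoblast peaks had a median log2 ratio of 0.50, and by total reads the shared promoters themselves had a median of -0.85. More distal regions were higher than lower in each setting given, on the scale named for it. Promoters, counted in fixed windows that H3K27ac did not choose, had 15.3% higher and 12.2% lower on the shared-promoter scale at the same read filter and fold.

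The other marks at distal regions differed between the classes as well. At the higher regions the median H3K4me1 enrichment was 7.49 times the genome mean in myoblasts and 10.4 times in myotubes, and 64.6% of the regions had more in myotubes. At the lower ones it was 22.3 and 6.88 times, with 2.03% having more in myotubes. H3K4me2 was 3.999 and 9.39 times at the higher regions and 16.0 and 4.94 times at the lower ones. H3K4me3 stayed low, at 1.79 and 4.36 times and at 3.57 and 2.27 times. These enrichments are on the total-read scale, on which the regions in neither class had 18.0 and 9.83 times for H3K4me1.

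Motif shares were taken over the 1 kb at the centre of each region. The MEF2 consensus was found in 19.2% of the higher regions, 6.21% of the lower ones and 15.3% of all 17322. The AP-1 site TGANTCA went the other way, with 41.1%, 56.0% and 46.5%. The E-box CAGCTG was in 61.3%, 52.5% and 60.2%, and the CArG box differed little, at 5.47%, 4.50% and 5.46%. Regions in neither class had the MEF2 consensus in 10.35%, AP-1 in 54.2% and the E-box in 60.4%. For AP-1 the higher regions thus stood apart from the rest, and for the E-box the lower ones did. Higher regions had less GC, a median of 47.0% against 50.5% in the lower ones. Within 45 to 50% GC the MEF2 consensus was in 17.1% of 4255 higher and 6.91% of 564 lower regions, and AP-1 in 41.9% and 58.9%. Above 50% GC these shares were 10.4% and 3.60%, and 33.1% and 52.7%. Regions in neither class had AP-1 in 58.5% within 45 to 50% GC and in 47.7% above 50%.
The 300 bases at the centre of a region of each kind are given from mm9, plus strand. They belong to the higher region with the highest lower bound among those whose centre holds a MEF2 match, in an intron of Sbf2 (chr7:117469126-117469425), and to the lower region with the lowest upper bound among those whose centre holds an AP-1 site, 34.4 kb upstream of Kcna5 and outside annotated protein-coding genes (chr6:126519841-126520140).
Sbf2 region: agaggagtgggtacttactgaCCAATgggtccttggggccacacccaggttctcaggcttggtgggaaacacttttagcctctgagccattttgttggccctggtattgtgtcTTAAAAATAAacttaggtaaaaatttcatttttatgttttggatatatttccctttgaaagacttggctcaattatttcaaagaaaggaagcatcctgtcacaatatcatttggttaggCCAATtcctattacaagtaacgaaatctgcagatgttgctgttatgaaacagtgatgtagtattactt
Kcna5 region: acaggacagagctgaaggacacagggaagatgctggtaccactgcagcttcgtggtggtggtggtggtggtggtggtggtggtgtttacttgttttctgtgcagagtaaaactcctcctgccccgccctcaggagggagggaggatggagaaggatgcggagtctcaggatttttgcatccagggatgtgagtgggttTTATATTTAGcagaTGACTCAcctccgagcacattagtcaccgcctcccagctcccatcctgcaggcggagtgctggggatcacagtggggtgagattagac
The Sbf2 region had 0 reads in myoblasts and 187 in myotubes (at least 44.1-fold higher, interval from 35.5), and its H3K4me1 reads were 4 and 47. The Kcna5 region had 42 and 2 reads (0.0337-fold, 0.00395 to 0.130), and its H3K4me1 reads were 111 and 10. It holds a MEF2 match beside its AP-1 site.

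**Figure D5:**
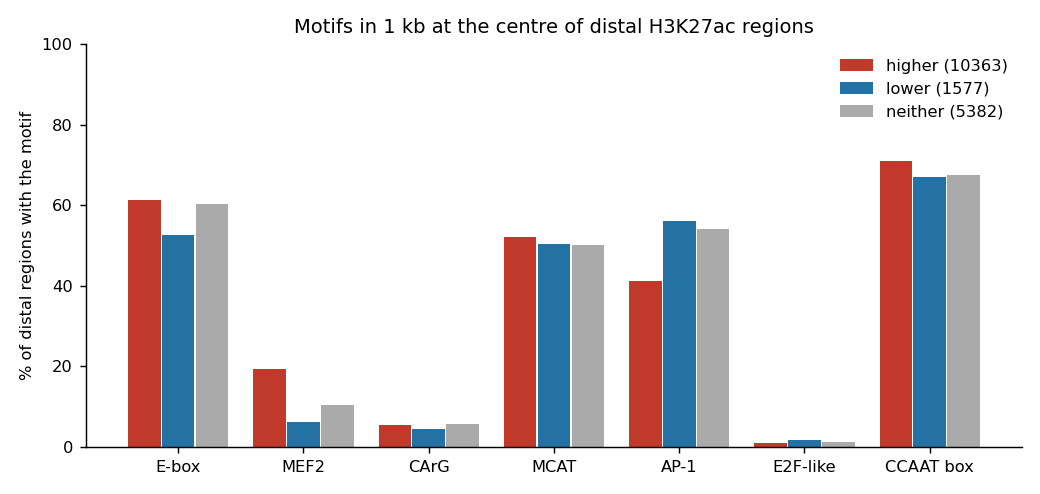
Percent of distal H3K27ac regions (y, from 0) with each motif in the 1 kb at the centre, for regions higher (red), lower (blue) or neither (grey) on the shared-promoter scale, with their number. MEF2 is more frequent in the higher regions, 19.2% against 6.21%, and AP-1 in the lower ones, 56.0% against 41.1%. The grey AP-1 bar, at 54.2%, lies near the blue one.

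Distal and promoter changes lay near each other. Within 50 kb of their TSS 60.5% of the higher promoters had a distal region that was higher, against 21.3% of the lower promoters and 39.7% of all examined. A lower region was within 50 kb of 7.49%, 14.8% and 9.45%. Higher promoters also had more examined regions of any kind, a mean of 2.30 against 1.02 at the lower and 1.48 at all. Around sarcomere genes 117 of 141 such regions were higher and 5 lower, against 59.8% and 9.1% of all distal regions. Around marker genes of other tissues the higher ones ran from 4 of 9 regions for blood and immune markers to 9 of 11 for liver markers. Around cell cycle genes, whose promoters were mostly lower, 39 of 63 regions were higher (61.9%) and 10 lower (15.9%). The higher share was close to that over all distal regions, and the lower share was larger, on few regions.

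Single regions reached the size of the largest promoter differences. The region with the highest lower bound lay 37.2 kb upstream of Neb, which encodes the thin-filament ruler nebulin, with 0 and 353 reads (chr2:52226374-52229252, at least 83.3-fold higher, interval from 67.35). Another inside Cdh13, a cadherin gene, had 2 and 622 reads (220-fold, 60.7 to 1821, chr8:121677071-121684271). The region with the lowest upper bound lay within Fam19a5, with 207 and 11 reads (0.0376-fold, 0.0185 to 0.0687, chr15:87545027-87548850).

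Distal peaks closer than 12.5 kb to each other were joined to domains, 9199 in myoblasts and 12081 in myotubes, and ranked by the reads of the library. The domain with the most reads was the same locus in both, overlapping Myh9, which encodes a non-muscle myosin heavy chain, with 2985 and 7908 reads over 136.5 kb (1.87-fold, 1.80 to 1.96). Among the other leading myoblast domains, the one within Bcar3 had 1394 and 1069 reads (0.543-fold, 0.501 to 0.588). The one beside Nanos3, over the Mir23a, Mir27a and Mir24-2 cluster, had 1372 and 3283, and those nearest Socs3, 6430527G18Rik, AB041803 and Ppara had 1265 to 1371 reads in myoblasts. Of the myoblast domains named here, only the one within Bcar3 had a ratio under 1 on the shared-promoter scale. The interval of the domain nearest AB041803 held 1 (1.05-fold, 0.975 to 1.12). By total reads each domain fold is 0.556 times the one on the shared-promoter scale, so some of the others fall under 1 there. In myotubes the domain at Socs3 and Pgs1 was second, with 1287 and 5922 reads (3.26-fold, 3.07 to 3.46). The next lay within Jph2, which ties the sarcoplasmic reticulum to the cell membrane, and it had 496 and 4647 reads over 49.5 kb (6.63-fold, 6.04 to 7.29, chr2:163167828-163217333). Domains at Hsf2bp, 6430527G18Rik, Slc6a6, 2010111I01Rik and Shb had 2.12 to 4.45 times the myoblast level on the shared-promoter scale. All 8 leading myotube domains were above 1 on the shared-promoter scale, and the lowest, at Myh9, was 1.92-fold (1.84 to 2.00). They were picked by their myotube reads, which favours a ratio above 1. Reads were counted over the whole span of a domain, so those at genes inside it, such as Socs3, are included.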

How the data were processed

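H3K27ac and 5 other marks were measured by ChIP-seq in C2C12 myoblasts and myotubes, 1 library each. The authors used Mosaik 1.0.1384 for alignment against mouse build mm9, and each uniquely aligned read was deposited as a count of 1. What was merged into a file and how duplicates were treated is not given in the sources used here. The authors called peaks per library with MACS and deposited them with its score. Its version, settings and control are not given in the sources used here, and no input library was used.

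Reads on chromosomes 1 to 19 and X were extended to 150 bp, and fragment midpoints were counted. Each protein-coding gene of GENCODE M1 had 1 promoter, within 1 kb of the start site that had most H3K4me3 over both states. A promoter or region needed at least 20 reads in both libraries together and was called past 2-fold with 1 read added to each count. Ratios were scaled by total reads or by shared promoters, those with an H3K4me3 peak in both states. Folds in the text add no read, and their 95% intervals are exact conditional binomial intervals that cover counting error only. PCR copies are not independent molecules. A count of 0 was given a limit of 3 reads per library. No p-value was computed.

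The comparison, the gene lists and the genes always named were chosen with earlier results of these data known. Genes named are the 12 promoters with the highest lower and the 12 with the lowest upper interval bound, per list those with the largest and smallest ratio and the most reads, 19 genes fixed beforehand (Myod1, Myf5, Myog, Myf6, Mef2c, Ckm, Acta1, Des, Ttn, Myh3, Id1, Id3, Ccnd1, Mki67, Fos, Cdkn1a, Igf2, Actb and Gapdh), and the nearest gene of the 8 stitched distal domains with the most reads per library, of which 1 myoblast domain is not reported here. List members under 20 reads and counts of 5 or fewer are named outside that rule, after their values were seen, as are Pfkm and the leading single distal regions. Map2 and Spi1 of the marker lists have no promoter under these symbols. Alternatives changed the window, read extension, duplicates, added reads, thresholds, scaling and depth. The steps were tested on simulated counts. Scripts ran in Python 3.11.15. Intervals came from scipy 1.17.1, tables from pandas 2.3.3 over numpy 2.4.6, and plots from matplotlib 3.10.9.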

Additional observations from a re-analysis of the deposited data

How the results depend on the processing

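No paired analysis was possible because each group is 1 library, and leaving out a library leaves no comparison. The median ratio at shared promoters was 0.545 over 2 kb downstream of the TSS, 0.5395 over 500 bp either side, 0.538 with 5 reads added, 0.585 when promoters with an H3K27ac peak in both libraries set it, and 0.573 with the myotube library thinned. The counts of promoters higher and lower on the shared-promoter scale were 3798 and 2756 with no filter on reads and 756 and 445 at 3-fold. With 10 kb windows outside peaks as the scale they were 573 and 4544, near those by total reads, and with at least 50 reads 820 were lower. On the total-read scale 941 were higher and 10364 lower with no filter, 343 and 2039 at 3-fold, and 386 were higher with 5 reads added. On the shared-promoter scale, distal regions numbered 5124 higher and 536 lower with at least 50 reads, and 5763 higher with the thinned library. On that scale 3946 were higher over the myoblast list alone, and 20009 were higher and 2384 lower over 2 kb windows of the genome. By total reads 3346 distal regions were lower and by windows outside peaks 3386. The myoblast list alone and the 2 kb windows were chosen after seeing the data. Of myoblast peaks 71.2% overlapped a myotube peak at a MACS score of at least 100, 58.0% by at least 50% of the peak, 75.2% within 1 kb and 0.589% with the list deposited with the H3K27ac sample. Of myotube peaks these shares were 52.9%, 40.2%, 57.8% and 0.249%. The other settings kept these counts within 1.5 times. Of 35 named genes past 2-fold upward 24 stayed past it by total reads and 30 over 2 kb downstream, and of 23 past it downward 23 and 20 did. Cadm4 reversed, to a log2 ratio of 0.11 over 2 kb downstream. The causes were not tested. Depth limits low promoters most, since the genome mean gives 1.45 myoblast and 3.69 myotube reads per promoter window, and 48.8% of promoters had at least 20 reads.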

Other observations

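Histone genes of the Hist1 group, chosen after the shares by chromosome were seen, had less H3K27ac in myotubes without less H3K4me3. Of 55 Hist1 genes on chromosome 13 44 had at least 20 reads, 26 of these were lower and 1 was higher on the shared-promoter scale, and their median log2 ratio was -1.36. The median of H3K4me3 at the same 44 promoters, on its own shared-promoter scale, was 0.38. Over the Hist1 to Hist4 genes together 27 of 55 examined promoters were lower, with a median of -0.96, so that 1 of the 11 outside Hist1 was lower. Hist1h4j, for example, had 36 and 4 H3K27ac reads and 43 and 48 H3K4me3 reads, and Hist1h1b, a linker histone, had 41 and 14 and then 67 and 47. The windows of clustered histone genes overlap and the genes are near-identical copies, so the members are not independent. Chromosome 13 had the highest share of lower promoters of all chromosomes, 19.7%, and 15.0% of its 368 other promoters were lower.

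Of the 1656 higher promoters 30, or 1.81%, overlapped an H3K27me3 peak in myoblasts, from 57 examined promoters with such a peak. Before the filter on reads, promoters with such a peak numbered 912 without and 181 with a myotube H3K27me3 peak. Both sets had medians of 1 H3K27ac read in myoblasts and 3 in myotubes. All 30 had a lower H3K27me3 enrichment in myotubes, with medians of 22 reads in myoblasts and 5 in myotubes, and 29 had no H3K27me3 peak there. Since the peaks of the myoblast library chose them, the direction of H3K27me3 is in part set by the choice. Their H3K27ac medians were 2 and 27.5 reads and their H3K4me3 medians 6 and 36. None would have passed the filter on reads without its myotube reads, so their number is a description. Named after their values were seen, they include Acta1, with 31 and 6 H3K27me3 reads, Fgfr3, a growth factor receptor, with 35 and 3, and Colq, which anchors acetylcholinesterase at the neuromuscular junction, with 23 and 5.

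Ankrd2, a stretch-response gene of muscle, had the highest lower interval bound of the higher promoters without an H3K4me3 peak in either state. It had 7 and 369 H3K27ac reads and 1 and 19 H3K4me3 reads. Its H3K4me1 reads were 44 and 91. On chromosome X the ratio of myotubes to myoblasts in 10 kb windows outside peaks was 0.41 higher on the log2 scale than over the genome, while other chromosomes lay between -0.10 and 0.11 and the median of shared promoters on X was -0.02.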
